A study of Mus musculus with 6 samples.

Results

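CD8 T cells of the mouse melanoma B16-OVA were examined for 9 genes whose products are released by the cell or act on released signals: *Areg*, *Csf1*, *Csf2*, *Spp1*, *Penk*, *Serpine2*, *Il1r2*, *Il2* and *Il10*. They are 9 of the 32285 genes counted. All 9 were chosen by measured values, since earlier results of these same libraries were known when the set was drawn up, so their levels and ratios are given here as descriptions and none is tested. Cells were CD45+ CD3+ CD8+ Tomato+ and came from tumors and draining lymph nodes (LN) of control mice (CD8-Cre Rosa26Tomato) and of CD8-IFNγRKO mice, which carry the same Cre and reporter and in addition IFNgR1flox/flox. B16-OVA is a melanoma line that makes ovalbumin, and both genotypes bore it. The labels give day 12 for the harvest and no age or sex of the animals. Cells of 3 mice were pooled into 1 library per tissue and genotype, 4 libraries in all, and the T cell receptor (TCR) chains of both tumor libraries were sequenced as well. No value in the files ties a cell to a mouse, so each group is 1 sample, no test between genotypes was possible, and every interval below covers counting error only. The Cre is driven by CD8α regulatory sequence, which limits the deletion to cells that have used it, and the Tomato sort selected such cells in both genotypes.

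T cells that meet antigen release cytokines and growth factors that act on neighbouring cells, and several of these genes are silent in resting T cells and switched on by TCR signals. IFNγ, itself a product of CD8 T cells, binds a receptor whose ligand-binding chain is encoded by *Ifngr1*, and signals through JAK kinases. GAS elements are DNA motifs found at genes that respond to IFNγ. *Areg* encodes amphiregulin, a ligand of the EGF receptor known from tissue repair. *Csf1* and *Csf2* encode M-CSF and GM-CSF, growth factors of macrophages and of granulocytes and macrophages. *Spp1* encodes osteopontin, a secreted matrix protein that binds integrins and CD44, and *Penk* encodes proenkephalin, the precursor of the enkephalin opioid peptides. *Serpine2* encodes protease nexin 1, a secreted inhibitor of serine proteases such as thrombin, and *Il1r2* the decoy receptor for IL-1, which binds the cytokine without signalling. *Il2* and *Il10* encode the T cell growth factor IL-2 and the immunosuppressive cytokine IL-10.

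In build GRCm38.p6 the genes lie at chr5:91139599-91148432 (*Areg*), chr3:107741048-107760469 (*Csf1*), chr11:54247270-54249899 (*Csf2*), chr5:104435111-104441053 (*Spp1*), chr4:4133536-4138815 (*Penk*), chr1:79794317-79858665 (*Serpine2*), chr1:40084692-40125230 (*Il1r2*), chr3:37120713-37125954 (*Il2*) and chr1:131019845-131024970 (*Il10*). The 250 bases upstream of the start of transcription are printed for *Areg*, *Csf1* and *Serpine2*, which had the lowest ratios between genotypes in tumors, and for *Il1r2*, because its window held a GAS motif. They come from RefSeq promoter windows of build GRCm38.p6, in which 7 of the 9 genes were matched (*Penk* and *Il10* were not), and are written 5′ to 3′ on the strand of the gene. The windows are chr5:91139349-91139598 on the plus strand (*Areg*), chr3:107760470-107760719 on the minus strand (*Csf1*), chr1:79858666-79858915 on the minus strand (*Serpine2*) and chr1:40085843-40086092 on the plus strand (*Il1r2*). Capitals mark matches to the GAS motif TTCNNNGAA, the cAMP response element TGACGTCA and the TATA box TATAAA on either strand.
Areg: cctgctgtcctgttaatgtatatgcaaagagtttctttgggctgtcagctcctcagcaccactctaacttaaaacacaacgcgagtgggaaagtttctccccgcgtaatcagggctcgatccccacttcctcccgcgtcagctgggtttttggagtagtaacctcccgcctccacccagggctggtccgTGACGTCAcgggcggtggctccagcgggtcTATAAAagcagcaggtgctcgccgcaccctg
Csf1: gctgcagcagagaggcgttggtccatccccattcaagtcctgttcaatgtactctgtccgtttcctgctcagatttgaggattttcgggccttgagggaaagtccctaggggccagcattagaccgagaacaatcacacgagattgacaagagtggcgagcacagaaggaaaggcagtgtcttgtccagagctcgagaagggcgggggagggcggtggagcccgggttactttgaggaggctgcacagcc
Serpine2: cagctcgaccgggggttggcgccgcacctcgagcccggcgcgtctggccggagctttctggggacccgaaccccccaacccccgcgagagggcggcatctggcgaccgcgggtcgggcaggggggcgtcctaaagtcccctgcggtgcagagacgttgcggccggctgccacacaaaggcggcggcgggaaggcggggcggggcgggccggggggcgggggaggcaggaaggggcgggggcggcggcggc
Il1r2: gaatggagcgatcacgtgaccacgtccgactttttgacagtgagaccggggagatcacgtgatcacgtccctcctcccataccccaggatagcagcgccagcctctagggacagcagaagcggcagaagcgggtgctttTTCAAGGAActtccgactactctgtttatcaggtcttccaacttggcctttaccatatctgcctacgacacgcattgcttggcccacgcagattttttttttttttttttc
The *Areg* window held a TGACGTCA 61 bases and a TATAAA 31 bases before the start, and the *Il1r2* window a TTCNNNGAA 111 bases before it. The *Csf1* and *Serpine2* windows held none of these, and TATAAA was also found in *Spp1*, 211 bases, and *Il2*, 31 bases before the start. The *Il1r2* window lies inside the span of the gene as annotated, since RefSeq places another start further upstream. Of all 32851 windows of the same length, 7.02% held the GAS motif, 1.55% the cAMP response element and 12.4% the TATA box. The AP-1 motif TGANTCA, present in 6.75% of all windows, was in none of the 7 matched windows. The NFAT core GGAAA, present in 55.6%, occurred 3 times in *Csf1*, 2 times each in *Csf2* and *Il2* and once each in *Areg* and *Spp1*, and 0 times in *Serpine2* and *Il1r2*. The bases G and C made up 78.8% of the *Serpine2* window and 40.4% to 57.2% of the other 6. A match is a stretch of letters, not a shown binding site, and other parts of the genes were not searched.

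Filtering left 8627 cells with 93930162 UMIs (unique molecular identifiers, tags that mark single RNA molecules) from the CD8-IFNγRKO tumor, 7082 with 59321141 from the control tumor, 6731 with 28841136 from the CD8-IFNγRKO LN and 6641 with 29934686 from the control LN. The median depth was 9405 and 6308.5 UMIs per cell in tumors and 3863 and 4051 in LN, CD8-IFNγRKO before control. Between any 2 libraries, 51 to 81 cell barcodes were shared. The 6 CD8 T cell markers *Cd3d*, *Cd3e*, *Cd8a*, *Cd8b1*, *Cd2* and *Trac* summed to 4432 to 6632 CPM (UMIs per 1000000 UMIs of a library) in every library, while 3 B cell markers summed to at most 2.43 CPM and 5 melanoma markers to at most 3.32 CPM. A kept barcode had to hold a UMI of each of *Cd2*, *Cd8a* and *Cd8b1*, so the presence of these markers was fixed by the filter. *Ifngr1*, the deleted gene, had 237 CPM with and 718 CPM without the floxed allele in tumors, and 137 against 182 CPM in LN. Beside these results stand other values that moved with genotype in tumors: 5 heat shock genes reached a sum of 3165 CPM in CD8-IFNγRKO and 1317 CPM in control tumors (LN, 1838 and 1239 CPM), and 5 immediate early genes a sum of 1724 and 2400 CPM. Most of the immediate early sum was *Junb* (935 and 1528 CPM), while *Fos* (210 and 165 CPM) and *Jun* (258 and 198 CPM) were higher in CD8-IFNγRKO. The part of the heat shock and immediate early genes in the results was not tested, and the splits by *Hspa1a* below are descriptions. *Xist* was at 0 to 0.167 CPM and the 4 Y-linked genes measured were present in every library.

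The first question was how the 9 genes stand in tumors with and without the IFNγ receptor on CD8 T cells. In the pooled sums, 8 of the 9 genes were lower in the CD8-IFNγRKO than in the control tumor library and *Il10* was higher. On the log2 scale with 1 CPM added to both libraries, 4 of the 9 (*Areg*, *Csf1*, *Spp1* and *Serpine2*) were at least 2-fold lower, against 1.37% of the 11048 genes that reached 1 CPM in one of them, and 1 (*Il10*) was at least 2-fold higher, against 1.07%. Since the genes were picked with this contrast known, nothing is read from these counts. The median log2 ratio was -0.99 over the 9 genes and 0.02 over all 11048. Near the 2-fold line, *Csf2* (-0.99) and *Il2* (-0.95) lay just inside it and *Il10* (1.14) and *Spp1* (-1.63) were the nearest beyond it.

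**Figure D1:**
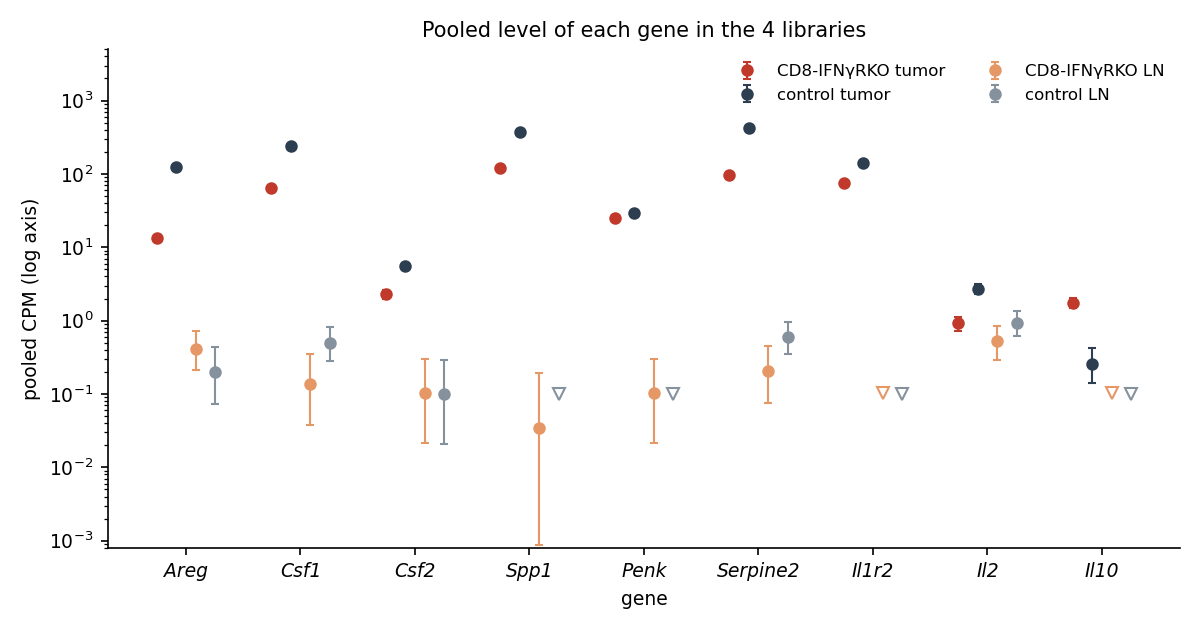
Pooled level of each gene in CPM (log axis) in the 4 libraries, with exact Poisson 95% intervals as bars. Open triangles stand at the level that 3 UMIs would give, in libraries without a UMI of the gene. In LN every gene lies under 1 CPM, and in tumors *Areg* stands at 13.6 CPM in CD8-IFNγRKO and 122 CPM in control cells.

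Among the growth factors, *Areg* had 1275 UMIs or 13.6 CPM (95% interval 12.8 to 14.3) in CD8-IFNγRKO tumor cells and 7260 UMIs or 122 CPM (120 to 125) in control tumor cells. The log2 ratio was -3.08 (-3.16 to -3.00), and 0.10% of the genes with at least 1 CPM had a lower one. *Csf1* was at 63.3 CPM (61.7 to 64.9) and 238 CPM (234 to 242), a log2 ratio of -1.89 (-1.94 to -1.85). These intervals are narrow because 1275 or more UMIs stand behind each value, and they say nothing about the spread between mice. *Csf2* rested on 214 and 326 UMIs, 2.28 CPM (1.98 to 2.60) against 5.50 CPM (4.92 to 6.13). Its log2 ratio of -0.99 (-1.18 to -0.79) includes the added 1 CPM, and without it the control level was 2.41 times the CD8-IFNγRKO level.

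The matrix protein, the opioid precursor and the protease inhibitor differed from one another. *Spp1* was at 121 CPM (119 to 123) in CD8-IFNγRKO and 375 CPM (370 to 380) in control cells, a log2 ratio of -1.63 (-1.66 to -1.59). *Serpine2* was at 95.9 CPM (94.0 to 97.9) and 425 CPM (420 to 430), a ratio of -2.14 (-2.17 to -2.10). For *Penk* the levels were 25.0 CPM (24.0 to 26.0) and 29.1 CPM (27.8 to 30.6), a ratio of -0.21 (-0.30 to -0.13). In *Penk* this order rests on few cells: 19 control cells held 50% of its control UMIs, and the highest of them held 184 of 1729. At equal depth the share of *Penk*+ cells had the opposite order, as given below, so no order between genotypes is read for *Penk*.

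The decoy receptor gene *Il1r2* was at 74.8 CPM (73.1 to 76.6) in CD8-IFNγRKO and 142 CPM (139 to 146) in control tumor cells, a log2 ratio of -0.92 (-0.97 to -0.88), short of 2-fold. *Il2* gave 86 and 160 UMIs, 0.916 CPM and 2.70 CPM, a ratio of -0.95 (-1.16 to -0.72). A single control cell held 155 of the 160 UMIs and a single CD8-IFNγRKO cell 53 of the 86. With the highest cell of each library left out, *Il2* had less than 1 CPM in both, so its pooled order is that of single cells. *Il10*, the one gene with a higher CPM in the CD8-IFNγRKO library, had 165 UMIs or 1.76 CPM (1.5 to 2.05) there and 15 UMIs or 0.253 CPM (0.142 to 0.417) in the control library, a ratio of 1.14 (0.92 to 1.30). Its 165 UMIs were spread over 124 cells with at most 6 in a cell, so no single cell carried the difference. With 10 CPM added, the ratio of *Il10* was 0.20. Without added CPM, *Il10* was 6.95-fold (4.09 to 12.7) higher in CD8-IFNγRKO. The CD4 and regulatory T cell markers *Cd4* and *Foxp3* were at 5.38 and 0.607 CPM in CD8-IFNγRKO and 4.21 and 0.691 CPM in control tumors. *Ikzf2*, of the same list, was at 39.0 and 39.3 CPM. Whether such cells had a part in the *Il10* values was not tested.

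Over 16 alternative ways of filtering and scaling the data, the log2 ratio ranged from -3.20 to -2.49 for *Areg*, -2.02 to -1.76 for *Csf1*, -1.72 to -1.55 for *Spp1*, -2.29 to -2.04 for *Serpine2* and -1.29 to -0.71 for *Il1r2*. *Penk* ranged from -1.27 to 0.16, on both sides of 0, as did *Il2* over 13 alternatives, from -1.62 to 1.13. Both of these ends were reached in settings that chose cells by TCR clone. The ratios without the 3 largest clones of each library were -1.27 for *Penk* and 1.13 for *Il2*. Within clones of 10 or more cells they were 0.16 and -1.62. For *Il2*, a control clone of 512 cells, among the 3 largest, held 155 UMIs in 1 cell, and leaving out the clone removed this cell.

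In LN the 9 genes were close to absent. Every gene was under 1 CPM in both LN libraries, with 0 to 28 UMIs per gene, so 0 of the 9 entered the comparison of genotypes there, in which 0.0823% of 10932 genes were at least 2-fold lower and 0.0549% at least 2-fold higher. *Il2* had the most UMIs of the set in LN, 15 in CD8-IFNγRKO and 28 in control cells, or 0.520 CPM (0.291 to 0.858) and 0.935 CPM (0.622 to 1.35). *Areg* had 12 and 6 UMIs, *Csf1* 4 and 15, *Serpine2* 6 and 18, and *Csf2* 3 and 3. The LN libraries held 1 and 0 UMIs of *Spp1* and 3 and 0 of *Penk*. *Il1r2* and *Il10* were at 0 in both, which allows up to 0.104 and 0.10 CPM. With 1 CPM added, the intervals of the LN ratios of *Areg* (-0.11 to 0.51) and *Il2* (-0.70 to 0.05) held 0, while those of *Csf1* (-0.62 to -0.05) and *Serpine2* (-0.67 to -0.04) lay just under it, on 4 and 15 and on 6 and 18 UMIs.

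Levels in tumor cells were next set against those in LN cells of the same genotype. The cells of the tissues differed in state. Markers of stem-like or naive-like cells summed to 2525 and 2404 CPM in LN and 174 and 179 CPM in tumors, CD8-IFNγRKO before control. Markers of exhausted cells summed to 77.9 and 73.7 CPM in LN and 1872 and 2753 CPM in tumors. Tissue and cell state cannot be told apart in these ratios. Since all 9 genes were under 1 CPM in LN, a gene passed the filter of 1 CPM through the tumor alone, and nothing is read from the counts that follow. In CD8-IFNγRKO mice, 8 of the 8 genes that reached 1 CPM in a tissue were at least 2-fold higher in the tumor, as were 17.1% of all 11602 genes (13.7% were at least 2-fold lower). In control mice, 7 of 8 were, with 16.2% of 11613 genes higher and 12.7% lower. The exception was *Il2* in control mice, at 0.93 (0.61 to 1.23) on the log2 scale. *Areg* was 32.6-fold (18.6 to 63.3) higher in tumor than in LN cells of CD8-IFNγRKO mice and 611-fold (280 to 1664) higher in control mice. The 12 *Areg* UMIs of the CD8-IFNγRKO LN lay in 4 cells, 7 of them in 1 cell, so the first of these ratios leans on a single cell. *Csf1* was 456-fold (178 to 1675) and 474-fold (287 to 847) higher, and *Serpine2* 461-fold (212 to 1257) and 706-fold (447 to 1192) higher. Against the level that 3 UMIs would give in LN, *Il1r2* was at least 719-fold higher in CD8-IFNγRKO and at least 1421-fold higher in control tumor cells, and *Spp1* at least 3743-fold higher in control tumor cells. Against the same level, *Il10* was 16.9-fold higher in CD8-IFNγRKO tumor than LN cells, and in control mice, with 15 and 0 UMIs, 2.52-fold higher. Its intervals began at 13.6 and 1.81.

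To ask whether fewer cells made each product or each cell made less, 1600 UMIs were drawn at random from each cell, so that shallower cells dropped out and 8352 CD8-IFNγRKO and 6382 control tumor cells remained. *Areg* was then found in 85 CD8-IFNγRKO cells, 1.02% (0.814% to 1.26%), and in 486 control cells, 7.62% (6.98% to 8.29%). *Csf1* was found in 9.21% (8.60% to 9.85%) and 27.8% (26.7% to 28.9%), and *Serpine2* in 10.2% (9.51% to 10.8%) and 31.8% (30.7% to 33.0%). *Spp1* was in 7.32% (6.77% to 7.90%) and 16.0% (15.1% to 16.9%), and *Il1r2* in 7.73% (7.17% to 8.33%) and 14.1% (13.3% to 15.0%). In each of these the control share was the higher, and the intervals did not overlap. No count over all genes stands beside this, so nothing is read from the lack of overlap. *Csf2* was in 0.251% (0.156% to 0.384%) and 0.627% (0.448% to 0.853%).

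Among the rarer genes, *Csf2* had the same order, and *Il10* and *Penk* the opposite one. *Il10* was found in 31 CD8-IFNγRKO cells, 0.371% (0.252% to 0.526%), and in 3 control cells, 0.0470% (0.0097% to 0.137%). *Penk* was in 2.49% (2.17% to 2.85%) and 1.80% (1.49% to 2.16%), and with another random draw of UMIs these intervals overlapped. *Il2* was in 8 and 2 cells, 0.0958% (0.0414% to 0.189%) and 0.0313% (0.0038% to 0.113%), with intervals that overlapped and a share no higher than in LN, where 0.105% and 0.12% of thinned cells held it. Before thinning, at depths that differ between the libraries, *Areg* was in 3.21% and 15.0%, *Csf1* in 33.0% and 59.8%, *Serpine2* in 30.0% and 55.5%, *Spp1* in 17.5% and 31.3%, and *Il1r2* in 25.6% and 36.6%.

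**Figure D2:**
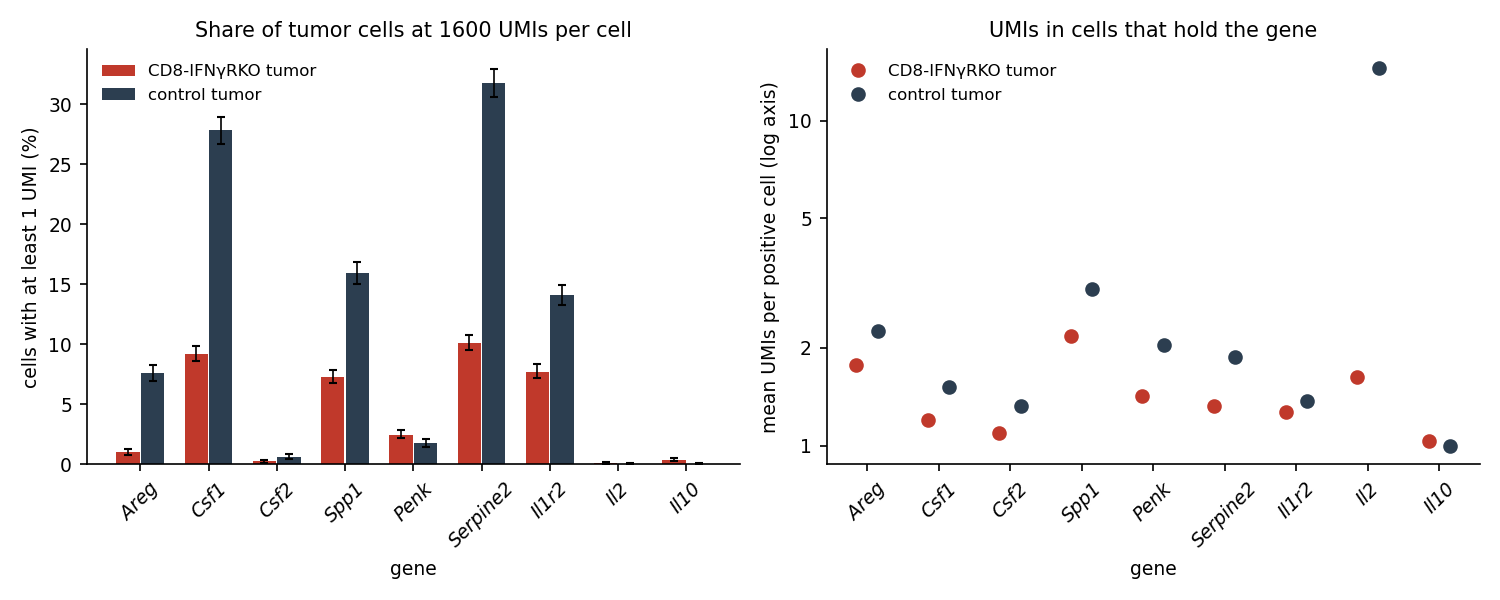
Left, share of tumor cells with at least 1 UMI of each gene after every cell was thinned to 1600 UMIs, with exact 95% intervals; right, mean UMIs per cell that held the gene (log axis). Shares of *Areg*, *Csf1*, *Spp1*, *Serpine2* and *Il1r2* were 1.82 to 7.48 times as high in control cells, and UMIs per positive cell 1.08 to 1.42 times.

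In thinned cells the shares differed by more than the UMIs per positive cell. The control share was 7.48 times the CD8-IFNγRKO share for *Areg*, 3.02 times for *Csf1*, 3.13 times for *Serpine2*, 2.18 times for *Spp1*, 2.49 times for *Csf2* and 1.82 times for *Il1r2*. The mean number of UMIs per positive thinned cell for *Areg* was 1.76 (CD8-IFNγRKO) and 2.26 (control), 1.28 times as high in the latter. It was 1.26 times as high for *Csf1*, 1.42 times for *Serpine2*, 1.39 times for *Spp1* and 1.08 times for *Il1r2*. At a fixed depth of 1600 UMIs a low level in every cell also lowers the share of cells with a UMI. A positive cell holds at least 1 UMI, which narrows the range of the UMIs per positive cell. Fewer cells and less RNA per cell therefore cannot be told apart from these values.

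UMIs of some genes were concentrated in few cells. For *Spp1*, 96 of 1509 positive CD8-IFNγRKO cells and 152 of 2219 positive control cells held 50% of all its UMIs, with up to 412 and 385 UMIs in a cell. For *Areg* it was 27 of 277 and 122 of 1062 cells, with 96 UMIs in the highest cell of each library. *Csf1* was more evenly spread, with 650 of 2847 and 853 of 4236 positive cells holding 50% and at most 24 and 32 UMIs in a cell. Cells with 10 or more UMIs of *Areg* numbered 41 of 8627 in CD8-IFNγRKO and 223 of 7082 in control tumors.

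As a gauge of RNA that floats free of cells, shares were read in cells of the same tumors that showed no clonal expansion. Thinned tumor cells that were the only cell of their TCR clone held *Csf1* in 0 of 351 CD8-IFNγRKO cells, with an interval up to 1.05%. In control cells it was in 4 of 179, 2.23% (0.612% to 5.62%). *Areg* was in 1 of 351 and 1 of 179 of them, *Spp1* in 0 and 1, *Il1r2* in 0 and 1, and *Serpine2* in 2 and 4, 0.570% and 2.23%. Shares of these 5 genes were lower than in all tumor cells of the same library. For *Areg* in CD8-IFNγRKO, though, the interval of this share (0.0072% to 1.58%) held the 1.02% of all thinned cells, so these shares were not told apart. *Il2* was not, at 2 of 351 and 1 of 179 cells (0.570% and 0.559%) against 0.0958% and 0.0313% of all thinned cells. The *Csf2* and *Il10* shares lie under the limits that 0 of 351 and 0 of 179 cells leave, so a level of free RNA of that size was not detectable at this depth. In LN, thinned shares of the 9 genes were 0 to 0.12%.

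The lower shares of *Areg*, *Csf1*, *Spp1*, *Serpine2* and *Il1r2* in CD8-IFNγRKO tumors were seen at every depth of the original cells. Among cells with fewer than 5000 UMIs before thinning, *Areg* was found in 0.872% (CD8-IFNγRKO) and 4.65% (control), and among cells with 10000 or more in 1.14% and 10.4%. *Csf1* was in 8.56% and 28.8% of the shallowest and 8.95% and 23.8% of the deepest cells. *Serpine2* was in 7.28% and 20.7% of the shallowest and 12.6% and 40.9% of the deepest cells, so its share was higher in deeper cells of both libraries. The gap was narrow for *Il1r2* in the shallowest cells, at 5.18% (4.24% to 6.26%) and 7.49% (6.36% to 8.76%), and for *Spp1* there, at 6.05% (5.03% to 7.20%) and 8.99% (7.75% to 10.4%).

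**Figure D3:**
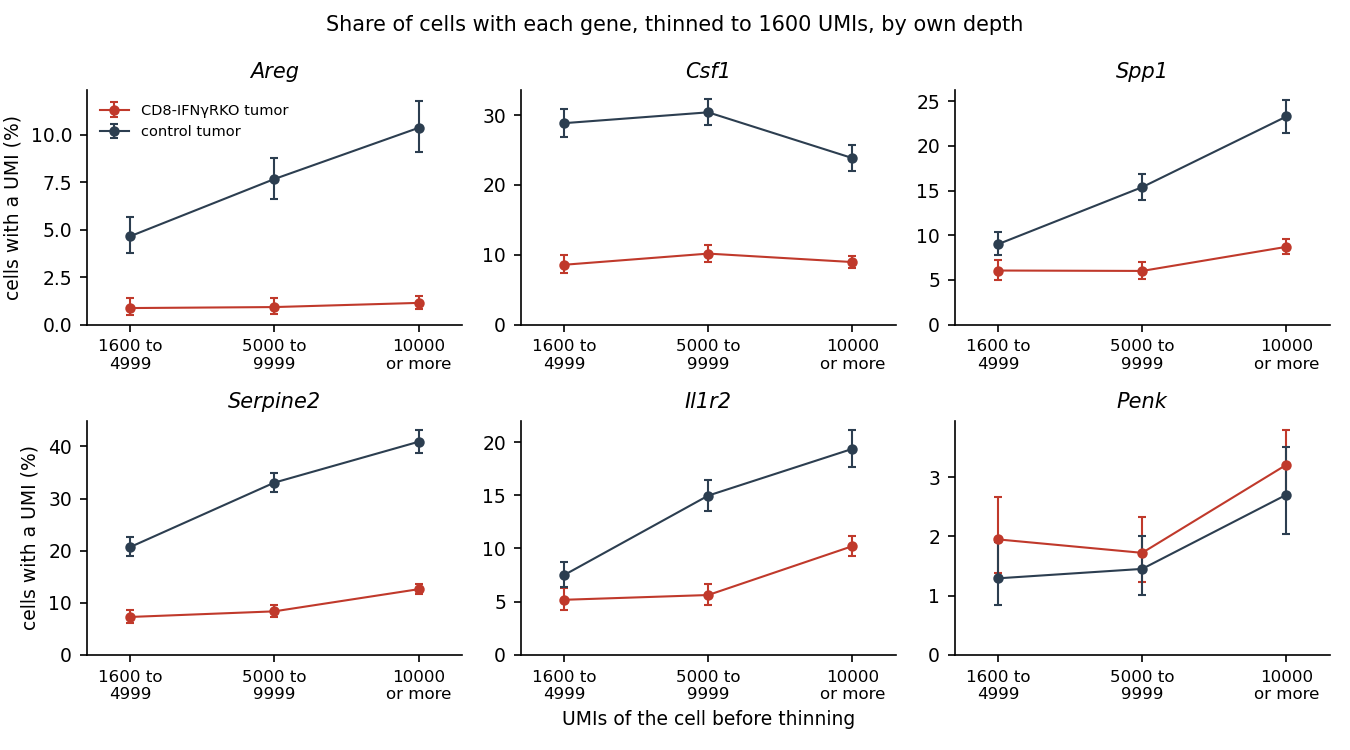
Share of tumor cells with a UMI of 6 genes after thinning to 1600 UMIs (y axes from 0), by the UMIs the cell had before thinning, with exact 95% intervals as bars. For *Areg*, *Csf1*, *Spp1*, *Serpine2* and *Il1r2* the control points lie above the CD8-IFNγRKO points in all 3 bands, and for *Penk* the intervals overlap in each.

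Heat shock genes, which moved with genotype, were set beside the shares. *Hspa1a* was found in 3153 of 8352 CD8-IFNγRKO and 726 of 6382 control thinned cells. In cells without *Hspa1a*, *Areg* was in 1.04% and 7.89%, *Csf1* in 9.17% and 28.1%, *Spp1* in 7.69% and 16.2%, *Serpine2* in 10.3% and 32.2% and *Il1r2* in 8.19% and 14.1%, CD8-IFNγRKO before control. The control share remained the higher in all 5 without the *Hspa1a*+ cells. In cells with no *Hspa1a* UMI at full depth, the pooled log2 ratio was -3.10 for *Areg* but -0.71 for *Il1r2* and -0.74 for *Csf2*, nearer 0 than in all cells. Of the 12 myeloid markers, 4 reached 1 CPM in either tumor library, and the list summed to 61.1 and 80.5 CPM, of which *Fcer1g* made up 48.2 and 62.7 CPM and *Cd68* 9.64 and 11.7 CPM. The macrophage-defining genes *C1qa*, *C1qb*, *C1qc*, *Lyz2*, *Apoe* and *Adgre1* were at 0.0319 to 1.26 CPM, and none was at 0. Each of these was lower in the CD8-IFNγRKO library, with *C1qb* at 0.586 and 1.26 CPM and *Lyz2* at 0.256 and 0.657 CPM. The 12 myeloid markers also served to leave out barcodes, so their low level in the kept cells was partly set by that filter. With cells above 0.05% of myeloid UMIs left out, in place of 0.2%, the log2 ratios were -3.08 for *Areg* and -1.65 for *Spp1*.

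Whether the genes were made by the same cells was read in the thinned tumor cells, as the number of cells that held both genes over the number expected from the product of their 2 shares. None of the 9 genes was found in 69.1% of CD8-IFNγRKO and 37.0% of control cells. There were 3 or more of them in 93 CD8-IFNγRKO cells (1.11%), where the single shares alone would give 33.6 (2.77 times as many), and in 513 control cells (8.04%), where they would give 338 (1.52 times). Of 36 pairs, 14 in the CD8-IFNγRKO and 19 in the control library had at least 5 expected cells and were read, and 14 and 17 of them exceeded 1. The 95% counting interval lay above 1 for 7 and 11 pairs and below 1 for none. Pairs of other genes were not counted in this way, so the excess is not taken as particular to the 9 genes. The excess was modest, with a median of 1.52 and 1.41, and Pearson's r of UMIs over cells of one library, which share depth and preparation, was at most 0.0810 and 0.147.

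**Figure D4:**
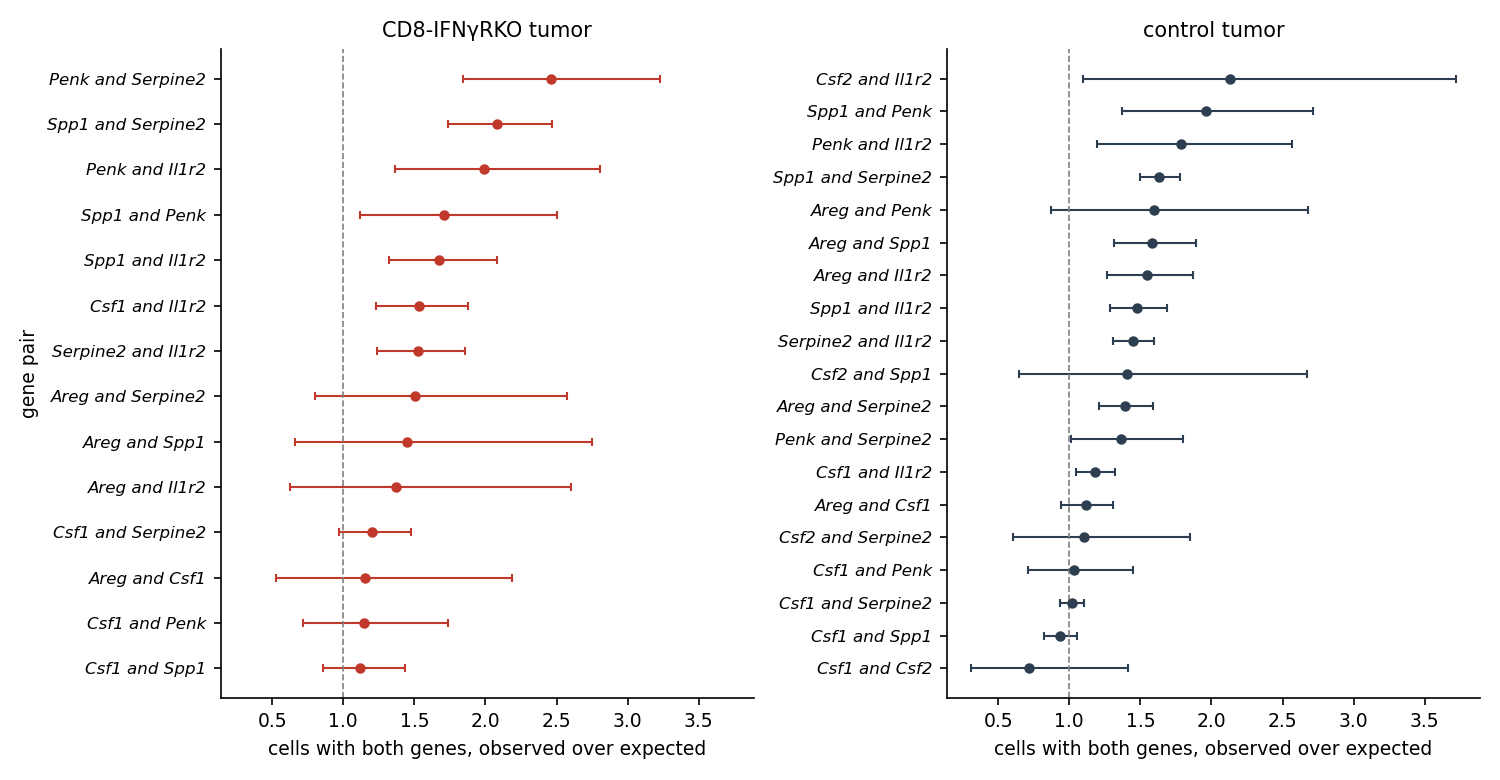
Cells with both genes of a pair over the number expected from the 2 shares, in thinned CD8-IFNγRKO and control tumor cells; pairs with fewer than 5 expected cells are not read. *Spp1* with *Serpine2* stands at 2.08 and 1.63 and *Csf1* with *Spp1* at 1.12 and 0.935.

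*Spp1* and *Serpine2* were found together in 129 CD8-IFNγRKO cells against 62.0 expected, a ratio of 2.08 (1.74 to 2.47), and in 529 control cells against 324, a ratio of 1.63 (1.5 to 1.78). In the control library 51.9% of *Spp1*+ cells and 28.0% of *Spp1*- cells held *Serpine2*. *Serpine2* and *Il1r2* shared 100 and 414 cells, ratios of 1.52 (1.24 to 1.85) and 1.45 (1.31 to 1.59). *Spp1* and *Il1r2* shared 79 and 212 cells, ratios of 1.67 (1.32 to 2.08) and 1.48 (1.28 to 1.69). RNA of *Spp1*, *Serpine2* and *Il1r2* was thus found together, pair by pair, in more cells than expected in both genotypes.

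*Areg* and *Csf1* were read against the same 3 genes in the control library. *Areg* shared cells with *Spp1* at 1.59 (1.32 to 1.89), with *Il1r2* at 1.55 (1.27 to 1.87) and with *Serpine2* at 1.39 (1.21 to 1.59). In CD8-IFNγRKO cells the same 3 pairs rested on 9 to 13 cells and their intervals held 1, so an excess was not detectable at this depth. *Csf1* was near the number expected with *Serpine2*, at 1.02 (0.937 to 1.1), and with *Spp1*, at 0.935 (0.825 to 1.05), in control cells, and above it with *Il1r2*, at 1.18 (1.05 to 1.32). With all UMIs, at depths that differ between cells, the first pair stood at 1.16 (1.12 to 1.21) and the next at 1.16 (1.1 to 1.22).

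*Penk* in CD8-IFNγRKO cells shared 52 cells with *Serpine2* against 21.1 expected, a ratio of 2.46 (1.84 to 3.23), and 32 with *Il1r2*, a ratio of 1.99 (1.36 to 2.81). The largest clone described below held most of the *Penk* UMIs of that library. *Il10* was too rare for pairs in thinned cells. With all UMIs, at depths that differ between cells, *Il10* and *Il1r2* were together in 20 CD8-IFNγRKO cells against 31.8 expected, a ratio of 0.629 (0.384 to 0.972), *Il10* and *Spp1* in 13 against 21.7 (0.319 to 1.02) and *Il10* and *Csf1* in 33 against 40.9 (0.555 to 1.13). *Il10* and *Serpine2* shared 40 cells against 37.2 expected.

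Shares were next read in cells with a UMI of markers of cell state. *Havcr2* encodes the inhibitory receptor TIM-3 of exhausted T cells and was found in 2060 CD8-IFNγRKO and 2239 control thinned cells. In these, *Serpine2* was in 14.1% and 39.1%, against 8.87% and 27.8% of the cells without *Havcr2*, and *Csf1* in 11.1% and 32.2%, against 8.60% and 25.5%. *Areg* was in 1.21% and 8.75% of *Havcr2*+ cells and in 0.954% and 7.0% of the others. For these 3 genes the control share was the higher on both sides of the marker. In cells with a UMI of *Tcf7*, a transcription factor of naive and stem-like T cells (445 and 183 cells), *Serpine2* was in 3.37% (1.90% to 5.50%) and 3.28% (1.21% to 7.0%), *Spp1* in 1.57% and 2.19%, *Il1r2* in 0.899% and 1.64%, *Csf1* in 2.92% and 6.01% and *Areg* in 0.674% and 1.64%. All 5 pairs of intervals overlapped there, so a difference was not detectable at this depth. In cells with a UMI of *Il7r*, another marker of naive and stem-like T cells (741 and 620 cells), the control share was the higher for all 5. *Serpine2* was in 9.72% and 21.6% of them, *Spp1* in 5.67% and 10.3% and *Il1r2* in 8.50% and 14.0%. *Csf1* was in 7.15% (5.40% to 9.25%) and 27.1% (23.6% to 30.8%), and *Areg* in 0.540% and 5.97%. In cells without *Il7r*, *Csf1* was in 9.41% and 27.9% and *Serpine2* in 10.2% and 32.9%. In cells without *Tcf7* they were in 9.56% and 28.5% and in 10.5% and 32.6%. For these genes *Il7r* thus set cells apart less than *Tcf7* did, and the *Il7r*+ shares are not read as those of stem-like cells.

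*Gzmd*, a granzyme of highly activated killer cells, marked 163 CD8-IFNγRKO and 761 control cells. *Spp1* was in 20.9% and 31.5% of them and in 7.05% and 13.9% of the others. *Il1r2* was in 19.0% and 29.4%, against 7.51% and 12.0%, and *Serpine2* in 27.6% and 51.4%, against 9.81% and 29.1%. *Csf1* differed less with the marker, at 10.4% and 34.4% against 9.18% and 26.9%. Among cells with *Mki67*, a marker of dividing cells (1483 and 668 cells), *Serpine2* was in 10.8% and 40.1%, *Spp1* in 8.77% and 22.2% and *Csf1* in 9.64% and 21.7%.

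TCR sequences were used to ask whether a few clones carried the values. Cells with both chains numbered 5932 in 429 clones in the CD8-IFNγRKO tumor library and 4268 in 259 clones in the control one. A clone lives in 1 mouse, and neither clones nor their cells are replicates of a genotype. In clones of 10 or more cells, *Areg* was in 0.969% of 5367 CD8-IFNγRKO and 7.87% of 3825 control thinned cells, *Csf1* in 9.60% and 30.1%, *Serpine2* in 10.6% and 32.8%, *Spp1* in 7.66% and 14.6% and *Il1r2* in 8.24% and 14.5%. In clones of 2 to 9 cells, *Csf1* was in 5 of 156 and 42 of 198 cells, 3.21% and 21.2%, while *Areg* was in 1 cell in each library.

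**Figure D5:**
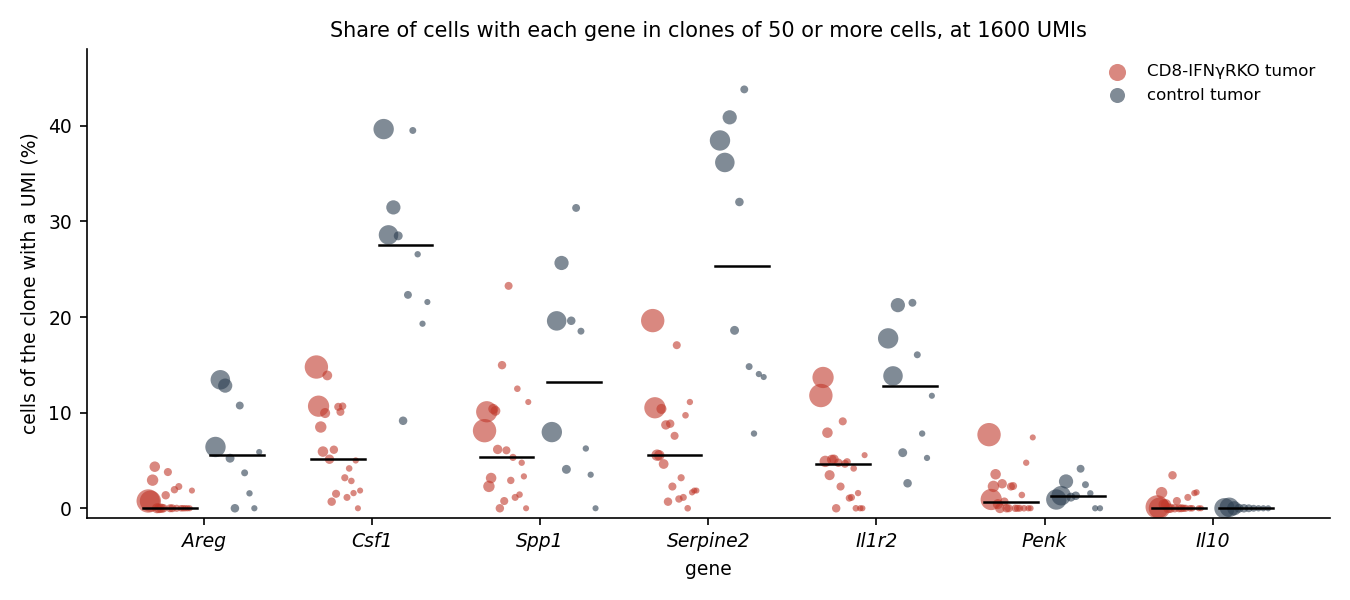
Share of thinned cells with each gene in every tumor clone of at least 50 cells, 21 in the CD8-IFNγRKO and 10 in the control library; the size of a point follows the number of cells and the black line is the median. For *Csf1*, 9 of the 10 control clones lie above every CD8-IFNγRKO clone.

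There were 21 CD8-IFNγRKO clones of 54 to 1461 cells and 10 control clones of 55 to 1099 cells. The share of *Csf1*+ cells was 0% to 14.8% in the CD8-IFNγRKO clones (median 5.13%) and 9.15% to 39.7% in the control clones (median 27.5%), and 9 of the 10 control clones were above all 21. *Areg* had a median of 0% (0% to 4.35%) and 5.56% (0% to 13.4%), and 6 control clones were above all CD8-IFNγRKO clones. It was at 0 in 12 of 21 CD8-IFNγRKO clones and 2 of 10 control clones. By the number of cells, a 0 in these clones allows a share of up to 1.30% in the largest and 5.56% in the smallest of them. *Serpine2* ranged from 0% to 19.6% (median 5.53%) and from 7.81% to 43.8% (median 25.3%), with 5 control clones above all others. For *Spp1*, at 0% to 23.3% and 0% to 31.4%, the clones of the genotypes overlapped widely.

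For *Il1r2* the range was 0% to 13.7% (median 4.65%) and 2.61% to 21.5% (median 12.8%). *Il10* was at 0 in 12 of the 21 CD8-IFNγRKO clones and reached 3.45% in the highest, 5 of 145 cells. In 9 of the 10 control clones *Il10* was at 0, and the remaining one had 0.101%. A 0 allows a share of up to 0.275% in the largest of these control clones and 5.88% in the smallest. The clone with the most *Il10* UMIs, of 312 cells, held 28 of the 105 *Il10* UMIs in cells with a clone, so the gene was not that of a single clone.

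*Penk* UMIs were concentrated in a clone. The largest CD8-IFNγRKO clone, 24.6% of all cells with a clone, held 1336 of their 1888 *Penk* UMIs, or 70.8%, and 50.6% of their *Serpine2* UMIs. In the control library a clone of 124 cells held 31.2% of the *Penk* UMIs of cells with a clone, in 9 cells. Without the 3 largest clones of each library, *Penk* was in 1.46% of CD8-IFNγRKO and 2.05% of control cells, the reverse of the order in all cells. On the same footing the log2 ratio was -2.51 for *Areg*, -1.29 for *Il1r2* and -1.26 for *Csf2*, and 7 of the 9 genes were at least 2-fold lower, against 1.34% of all genes that reached 1 CPM in this setting, and nothing is read from that count either.

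The genes most like 4 of the 9 in their pattern over cells were found as those with the highest mean UMIs in positive over negative thinned cells, taking the lower of the values in both tumor libraries, among 2595 genes with at least 50 CPM in both. For *Spp1* they were *Gzmc* (2.29), *Gzmf* (2.18), *Serpine2* (2.12), *Serpinb9b* (2.09) and *Endod1* (1.67). For *Il1r2* they were *Gzmc* (3.05), *Serpinb9b* (2.44), *Gzmf* (2.29), *Igfbp7* (2.10) and *Mt2* (2.04). *Gzmc* and *Gzmf* encode granzymes, and *Serpinb9b* a serpin of the granzyme inhibitor family. For *Serpine2* they were *Spp1* (2.53), *Nrgn* (1.90), *Gzmf* (1.76), *Serpinb9b* (1.72) and *Gzmc* (1.72), so 3 of the 5 were also on the lists of both *Spp1* and *Il1r2*. *Csf1* had other genes, *Ifitm2* (1.54), *Ifitm3* (1.40), *Gm36723* (1.35), *Il18rap* (1.32) and *Itgav* (1.31). The remaining 5 genes were in under 2% of thinned cells of one or both libraries and were not ranked.

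Genes of the same pathways in tumors are given as descriptions, since these lists were chosen with earlier results of these data known. Of all 11048 genes, 1.37% were at least 2-fold lower and 1.07% at least 2-fold higher. Nothing is read from the counts within the lists. Of 17 receptor genes for these products, 10 had at least 1 CPM and 0 differed 2-fold in either direction, with a median log2 ratio of -0.07. The IL-2 receptor chain gene *Il2rb* was at 939 CPM in CD8-IFNγRKO and 1118 CPM in control cells, and the osteopontin receptor gene *Cd44* at 82.1 and 86.3 CPM. The amphiregulin receptor gene *Egfr* had no UMI in either, and the M-CSF receptor gene *Csf1r* was at 0.16 and 0.135 CPM. *Csf1r* is one of the myeloid genes by which tumor barcodes were left out. The *Il1r2* ligand genes *Il1a* and *Il1b* were under 1 CPM in both.

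Of 16 other secreted cytokines, 8 had at least 1 CPM and 0 differed 2-fold, with a median of -0.30 (*Ifng* 425 and 474 CPM, *Tnf* 44.0 and 68.1 CPM). Of the 7 EGF family ligands, *Areg* and *Hbegf* had at least 1 CPM, and *Hbegf* was at 2.15 and 1.70 CPM, a log2 ratio of 0.22. Among 6 chemokines 2 were at least 2-fold lower in CD8-IFNγRKO cells (*Ccl5* -1.57, *Ccl1* -1.05) and *Xcl1* (1.63) was higher, and among 8 granzymes 4 were lower and 2 higher. The 8 TCR-induced factors had a median of -0.86, with *Nr4a1*, *Nr4a3* and *Egr1* at least 2-fold lower, and no gene of this list higher. Beside these counts stand the 1.37% lower and 1.07% higher of all 11048 genes. The lists were picked with the data known, so nothing is read from their counts.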

How the data were processed

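Droplet single-cell RNA-seq (10x 5' v2) of sorted CD8 T cells was deposited by the authors as raw UMI counts per gene and barcode, made with Cell Ranger 6.0.0 on mm10, with TCR contigs for the tumors. The members and all gene lists were chosen with earlier results of these data known. A barcode was kept if it had a UMI of each of *Cd2*, *Cd8a* and *Cd8b1* and between 200 and 6000 genes. It also had to hold no more than 3% of UMIs from mitochondria and 20% from any gene and, in tumors, less than 0.2% from myeloid genes. Doublets were not removed. UMI counts were summed per library and given as counts per 1000000 (CPM) with exact Poisson 95% intervals. Ratios had 1 CPM added and exact binomial intervals, for genes reaching 1 CPM in one of the libraries, and 2-fold was the call. For shares, cells were thinned to 1600 UMIs (Clopper-Pearson intervals). Cells too shallow for this numbered 275 (CD8-IFNγRKO tumor), 700 (control tumor), 41 and 237 (LN). With 1 library per group there was no test. A clone was a set of cells with identical V, J and CDR3 nucleotides of the alpha and beta chain with most UMIs. Named genes were the 9 genes, the deleted gene, cell type markers, up to 4 genes of each pathway list, and the 5 genes most like each ranked gene. Scripts were tested on simulated data and used scipy 1.17.1, matplotlib 3.10.9, pandas 2.3.3 and numpy 2.4.6 under Python 3.11.15. Alternatives changed filters, scaling, thinning and clones. Some genes examined are not reported here.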

Additional observations from a re-analysis of the deposited data

Results flagged for a closer look

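Some of the genes had signal in tumor barcodes that the comparisons left out. A kept barcode needed a UMI of each of *Cd2*, *Cd8a* and *Cd8b1*, and 3961 control tumor barcodes did not hold all of them. In these, with a median of 915 UMIs, *Penk* was at 72.3 CPM (65.6 to 79.5), against 29.1 CPM in the kept control cells. It was in 285 of these barcodes (7.20%), with at most 45 UMIs in one. In the 3065 CD8-IFNγRKO barcodes of the same kind *Penk* was at 16.2 CPM, against 25.0 CPM in the kept cells.

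In the 21 control tumor barcodes left out for their myeloid UMIs, *Areg* was at 204 CPM (143 to 282) in 4 barcodes, *Spp1* at 628 CPM (517 to 757) in 9, *Serpine2* at 594 CPM (486 to 720) in 13 and *Il1r2* at 357 CPM (274 to 456) in 11. The kept control cells had 122, 375, 425 and 142 CPM. These values rest on 36 to 111 UMIs. The highest barcode of each gene held 21 of the 36 *Areg* UMIs and 34 of the 63 *Il1r2* UMIs. In the 9 CD8-IFNγRKO barcodes left out in the same way, *Areg* was at 0, *Spp1* at 15.3 CPM on 1 UMI and *Il1r2* at 91.6 CPM on 6. *Serpine2* was at 290 CPM there, with 18 of its 19 UMIs in 1 barcode.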

How the results depend on the processing

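Each group is 1 library of 3 pooled mice, so no setting measures the spread between mice, and depth limits *Csf2*, *Il2*, *Il10* and all LN values. The median log2 ratio in tumors was -0.99 over the 9 genes. It was -1.29 without the 3 largest clones, -1.63 among genes with at least 5 CPM and -1.33 without the cell with most UMIs of each gene. With UMIs of thinned cells it was -1.19, and in clones of 10 or more cells -1.55. Each median covers only those of the 9 genes that reached the CPM limit in that setting, so it can move when a gene drops out. *Il2* and *Il10* dropped out at 5 CPM, and *Il2* also without its highest cells. The 4 genes at least 2-fold lower became 7 without the 3 largest clones, while 151 of all genes became 148. The 1 gene higher became 2 there, while 118 of all genes became 103 (0.929%). The gene added was *Il2*, of which 1 CD8-IFNγRKO cell held 53 of the 86 UMIs in all kept cells. With 10 CPM added or among genes with at least 5 CPM the 1 gene higher became 0. No count over all genes is given here for the limit of 5 CPM, and nothing is read from these counts. Over all genes, 151 lower became 44 and 118 higher became 30 with 10 CPM added. The 118 became 179 with the mean over cells of CPM and 233 with UMIs of thinned cells. With library sizes that left out TCR segments, heat shock, ribosomal and mitochondrial genes, 1 of the 9 genes (*Il2*) reached 1 CPM in LN, against 0. Cells with 3 or more of the genes over the expected number, 1.52 in control, came to 1.79 without the 3 largest clones, 1.80 thinned to 1000 UMIs, 1.30 thinned to 3000, 1.67 without the *Cd2*, *Cd8a* and *Cd8b1* filter and 1.14 not thinned. In CD8-IFNγRKO 2.77 came to 1.99 thinned to 3000 and 1.76 not thinned. The 2 genes whose share was higher in CD8-IFNγRKO with intervals that did not overlap (*Penk* and *Il10*) became 1 with myeloid UMIs under 0.05%, without the 3 largest clones, thinned to 1000, with another random draw, without the *Cd2*, *Cd8a* and *Cd8b1* filter or in cells without *Hspa1a*, and 0 when at least 2 UMIs were required, all by the same criterion. No count over all genes stands beside these counts of shares, so nothing is read from them. The *Penk* share, 0.688 points higher in CD8-IFNγRKO, was -0.59 points without the 3 largest clones. The log2 ratios of *Penk* and *Il2*, within 2-fold in tumors, also changed sign, to 0.16 for *Penk* in clones of 10 or more cells and 1.13 for *Il2* without the 3 largest clones. The latter setting leaves out the control cell that held 155 *Il2* UMIs. The causes were not tested. The settings without the top cell, with thinned UMIs, without *Hspa1a*+ cells and in clones of 10 or more cells were chosen after seeing the data. No paired analysis was possible because each group has 1 library.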
